A study of Mus musculus with 6 samples.

Results

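The genes described here are 10 members of the bone morphogenetic protein (BMP) system, the ligands Bmp2, Bmp4, Bmp5, Bmp6, Bmp7 and Gdf10, the secreted antagonists Grem1 and Nog, and the receptors Bmpr1a and Bmpr2. They were found by symbol in the annotation of the array, which gave 17 of its 22690 probe sets. The symbols were listed when the differences between estradiol (E2) and control cells on these same arrays were already known, so those differences are given for the members as a description, with no test of the list. The cells were mesenchymal cells of the urogenital sinus, which gives rise to the prostate, taken from male CD-1 mouse fetuses at gestation day 17, freed of epithelium by settling and used at first passage. Both groups were held for 3 days without estrogen and then treated for 4 days, control cells with the ethanol vehicle and E2 cells with 100 nM E2, and both received 690 pM dihydrotestosterone (DHT) throughout. RNA from 3 samples of each group was read on Affymetrix mouse 430A arrays. The sources used here do not say whether the samples of a group came from separate cell preparations, so the spread between them may be technical.

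BMPs are secreted dimers that bind a complex of type I and type II receptor kinases, which phosphorylate Smad proteins that enter the nucleus and regulate target genes such as the Id genes. Antagonists such as noggin and gremlin bind the ligand and keep it from its receptors. In the urogenital sinus, BMP4 and BMP7 are known as mesenchymal restraints on budding and branching of the prostatic epithelium, and noggin as a factor that relieves this restraint.

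Bmp4 and Gdf10 are the members on which the results turn, and their proximal promoters are shown as context for the hormone treatment. The sequences are from RefSeq on build GRCm38.p6 and run over the 250 bases before the annotated start, 5′ to 3′ on the strand of the gene. Capitals mark each GC box, GGGCGG or, where it lies on the other strand, CCGCCC, a motif bound by Sp1 and its relatives.
Bmp4, chr14:46390670-46390919, minus strand: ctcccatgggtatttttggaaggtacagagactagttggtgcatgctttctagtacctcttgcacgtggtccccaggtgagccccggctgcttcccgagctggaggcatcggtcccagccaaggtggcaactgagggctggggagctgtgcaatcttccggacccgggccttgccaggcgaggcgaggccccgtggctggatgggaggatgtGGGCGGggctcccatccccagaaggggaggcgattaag
Gdf10, chr14:33923337-33923586, plus strand: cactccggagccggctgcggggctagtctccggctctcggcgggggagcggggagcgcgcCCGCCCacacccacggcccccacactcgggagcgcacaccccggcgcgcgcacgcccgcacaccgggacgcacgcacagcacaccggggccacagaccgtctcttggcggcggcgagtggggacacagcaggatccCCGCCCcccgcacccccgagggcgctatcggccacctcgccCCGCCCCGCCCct

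The Bmp4 window held 1 GC box, starting 38 bases before the start, and the Gdf10 window held 4, the last pair overlapping by 1 base, with 63.2% and 78.8% G and C bases against a median of 52.4% over all windows. A GC box was found in 32.7% of the 32851 windows of this length in the table. Promoters were given there for 7 of the 10 members, Bmp4, Bmp5, Bmp6, Gdf10, Grem1, Bmpr1a and Bmpr2. Bmpr1a held 4 GC boxes (78.8% G and C bases), as many as Gdf10, and Grem1 held 3 (72.0%). Bmp6 (68.8%) and Bmpr2 (64.0%) held 1 each, and Bmp5 (42.8%) held none. GC boxes were thus not particular to Bmp4 and Gdf10. The full estrogen response element, searched as GGTCA followed after any 3 bases by its complement from the other strand, was in none of these 7 windows and in 0.0639% of all windows. Its single arm GGTCA, which the full element contains, was matched on either strand 2 times in Bmp6 and 2 times in Grem1, in none of the other 5 windows, and in 35.2% of all windows. The AP-1 motif TGANTCA was in none of the 7 windows and in 6.75% of all windows. These matches describe letters in a window and say nothing of receptor binding.

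Signals are given in units of the deposited linear scale after each array was scaled to its median. The medians as deposited ran from 13.8 to 21.9 units, the highest 1.59 times the lowest. A probe set was tested if its deposited mean reached 10 units in control or in E2, which kept 14223 probe sets and left 8403 untested. The log2 values were compared, E2 minus control, with limma, with Benjamini-Hochberg adjustment over all probe sets tested. Of the 17 member probe sets 8 were tested, covering Bmp4, Gdf10, Grem1, Bmpr1a and Bmpr2, and 9 were not. On control replicate 3 and E2 replicate 2 the mean signal of the array's 18S ribosomal RNA control probe sets was 142.5 and 149 units, against 15.5 to 25.3 units on the other 4 arrays, and the differences of the members tested are given with and without them. Over the 6 arrays, probes at the 3′ end read 0.825 to 0.942 times those at the 5′ end for Gapdh, and 0.979 to 1.08 times for actin. The mesenchymal markers Vim (1797 and 1717 units in control and E2) and Col1a1 (3427 and 3233 units) were bright. Of 8 epithelial markers, Cdh1, Epcam, Krt5 and Trp63 averaged below 10 units in both groups, while the keratins Krt18 (39.1 and 72.0 units), Krt19 (8.66 and 18.8), Krt8 (6.37 and 12.6) and Krt14 (5.56 and 10.97) were each brighter on all E2 arrays than on all control arrays. Such separation was seen for 5.72% of all probe sets tested. Krt8, Krt14 and Krt19 passed the filter through E2 alone, and for Krt14 the lowest E2 array (8.17 units) was close to the highest control array (7.89 units). Krt18 alone was past the adjusted threshold in limma.

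Bmp4, the mesenchymal ligand best known for limiting prostatic budding, was dimmer in E2, at 52.8% of its control signal, while Gdf10, a divergent ligand also called BMP3b, was 2.06 times as bright. The other ligands of the list were at or near background in both groups. The type I receptor Bmpr1a was measured on 4 tested probe sets, all with a lower mean in E2, by 0.22 to 0.65 on the log2 scale, and none past the adjusted threshold. The antagonist Grem1 and the type II receptor Bmpr2 did not separate the groups.

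The Bmp4 probe set, 1422912_at, read 196, 175.0 and 227 units on control replicates 1 to 3 and 138, 94.1 and 87.9 units on E2 replicates 1 to 3. All 3 E2 arrays lay below all 3 control arrays, with E2 replicate 1 closest to the control range. The control mean was 199 ± 26.1 units and the E2 mean 107 ± 27.5 units (SD, n = 3 each), a log2 difference of -0.92 (SE 0.18). The adjusted p over all probe sets was 0.0248 by limma.

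The call for Bmp4 depended on single arrays, on scaling and on the variance trend. Leaving out control replicates 1, 2 or 3 gave an adjusted p from limma of 0.0913, 0.0501 and 0.194, leaving out E2 replicates 2 or 3 gave 0.0592 and 0.114, and leaving out E2 replicate 1 gave 0.00702. With the values as deposited the difference was -0.86 and the adjusted p 1, and without a variance trend the adjusted p was 0.282. Without both arrays of high 18S signal the means were 185 and 113 units, the difference was -0.75 and the adjusted p 0.119. Bmp4 was lower in E2 under each of these settings.

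The Gdf10 probe set, 1424007_at, read 144, 204 and 195 units on control replicates 1 to 3 and 385, 302.0 and 430.1 units on E2 replicates 1 to 3. Each E2 array lay above each control array, and the lowest E2 array was that of high 18S signal. The control mean was 181 ± 32.7 units and the E2 mean 372 ± 64.9 units (SD, n = 3 each), a log2 difference of 1.04 (SE 0.16), with an adjusted p of 0.00594 by limma. With each array left out in turn the difference ran from 0.88 to 1.18 and the adjusted p from 0.00201 to 0.0451. Without both arrays of high 18S signal it was 1.25 (SE 0.15), with an adjusted p of 0.00127, and with the values as deposited it was 1.10, with an adjusted p of 0.275. Without a variance trend the adjusted p was 0.224.

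**Figure D1:**
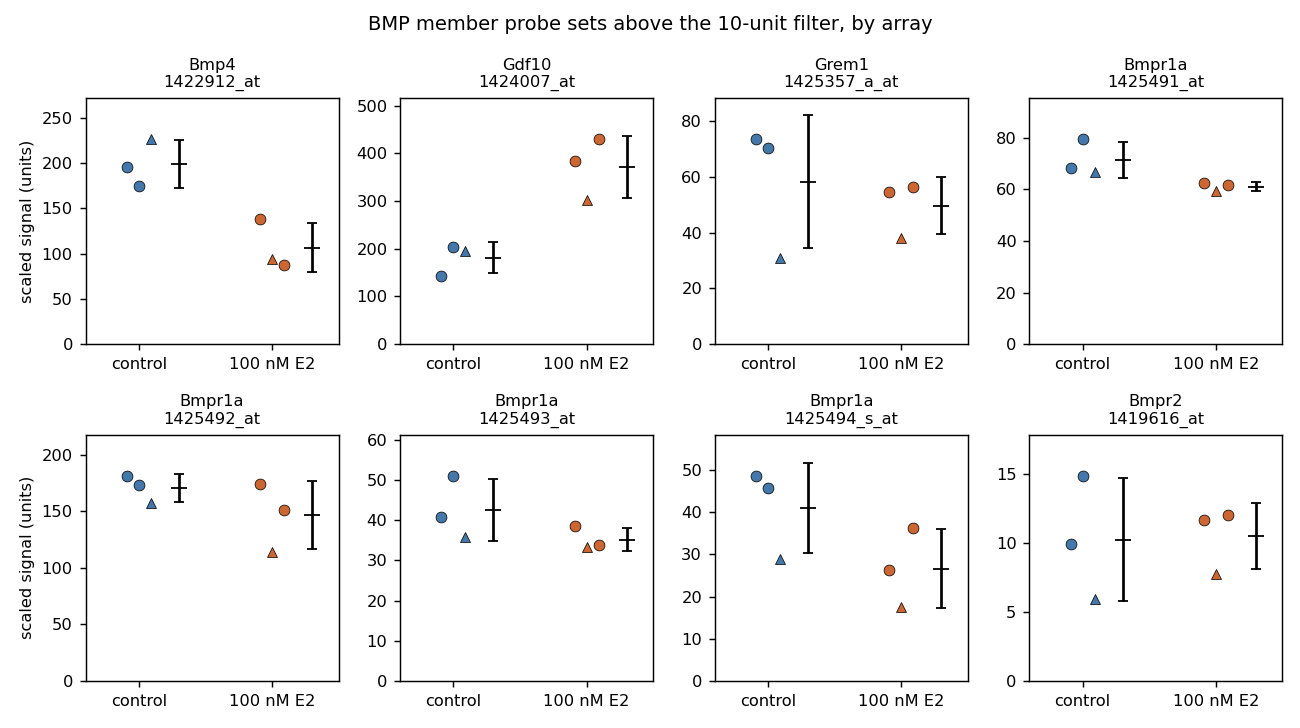
Scaled signal in units, on axes that start at 0, of the 8 member probe sets tested, in control cells (blue) and cells treated with 100 nM E2 (orange), 1 point per array, with the mean and SD of the 3 arrays beside each group. Triangles mark the arrays of high 18S signal. The groups stand apart for Bmp4, 199 against 107 units, and for Gdf10, 181 against 372 units, and the triangles are the lowest point of each group for Grem1, Bmpr1a and Bmpr2.

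Of the 8 member probe sets tested, 1 was called higher with E2 (Gdf10) and 1 lower (Bmp4) at an adjusted p under 0.05 by limma, against 0.492% and 0.253% of all probe sets tested. The study's results name thresholds of 1.5-fold and P of 0.05 or less, applied here to the limma p before adjustment, on scaled arrays. By these 1 was higher and 2 were lower, against 2.05% and 1.88% of all, the further one being a probe set of Bmpr1a. All 3 E2 arrays lay above all 3 control arrays for 1 member probe set and below them for 2, against 5.72% and 8.47% of all. Because the members were listed with these differences known, nothing is read from these shares.

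The opposite differences of Bmp4 and Gdf10 can be set against each other within an array, where scaling cancels. This measure was chosen after the values were seen. The log2 ratio of the Gdf10 signal to the Bmp4 signal was -0.45, 0.22 and -0.22 on control replicates 1 to 3 and 1.48, 1.68 and 2.29 on E2 replicates 1 to 3. The ratio was higher on each E2 array than on each control array, and its mean shifted by 1.96, from -0.15 ± 0.34 to 1.82 ± 0.42 (SD, n = 3 each). Since Gdf10 was higher and Bmp4 lower on every E2 array, this separation was fixed in advance. The shift restates their separate differences and is no further result. The level of the ratio has no meaning, since it sets different probes against each other, and its shift shows only that the signals changed unequally.

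Set against the brightest probe set of Bmpr1a, the log2 ratio of Bmp4 was 0.11, 0.01 and 0.53 on the control arrays and -0.33, -0.28 and -0.78 on the E2 arrays. The groups did not overlap, and the mean shifted by -0.68. The corresponding ratio of Gdf10 was -0.34, 0.23 and 0.31 on the control arrays and 1.15, 1.40 and 1.51 on the E2 arrays. These groups did not overlap either, with a shift of 1.28. Bmp4 and Gdf10 already separated the groups on their own, so the 2 ratios over Bmpr1a largely restate those differences and are no further result. The fourth ratio computed, Grem1 over Bmp4, was -1.41, -1.31 and -2.88 on the control arrays and -1.34, -1.31 and -0.64 on the E2 arrays. Here the groups overlapped, with a shift of 0.77 and control replicate 3 the lowest of the 6 arrays. Without the arrays of high 18S signal the shifts were 0.37 for Grem1 over Bmp4, 2.00 for Gdf10 over Bmp4, -0.62 for Bmp4 over Bmpr1a and 1.38 for Gdf10 over Bmpr1a.

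**Figure D2:**
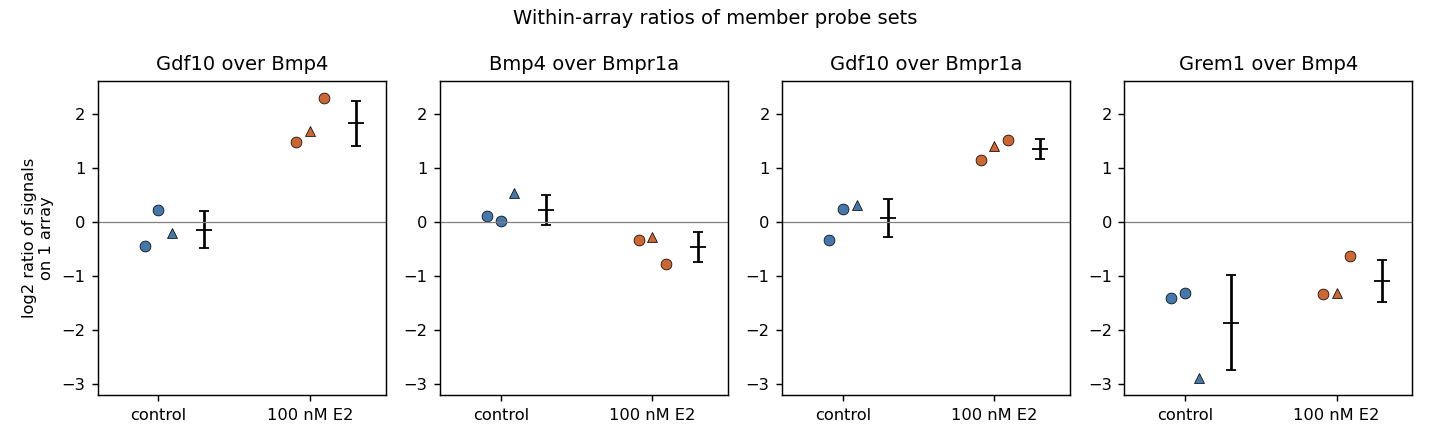
Log2 ratio of the signals of member probe sets on the same array, for Gdf10 over Bmp4, Bmp4 over Bmpr1a, Gdf10 over Bmpr1a and Grem1 over Bmp4, in control (blue) and 100 nM E2 (orange), 1 point per array with the mean and SD of 3 arrays; triangles mark the arrays of high 18S signal. The groups do not overlap in the panels of Gdf10 over Bmp4 and of either over Bmpr1a, with mean shifts of 1.96, -0.68 and 1.28, and they overlap for Grem1 over Bmp4. For Gdf10 over Bmp4 the separation follows from that of the single genes, and the ratios over Bmpr1a largely restate the differences of Bmp4 and Gdf10.

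The other ligands gave little signal. Bmp2, a close relative of Bmp4, read 12.6, 2.77 and 0.284 units on control replicates 1 to 3 and 5.32, 8.70 and 3.44 units on E2 replicates 1 to 3. One control array was above 10 units, the others were below it, and the groups overlapped.

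Bmp7, the other BMP known to restrain prostatic branching, had 3 probe sets, with single-array values from 0.386 to 7.91 units. Its control means ran from 1.10 to 2.92 units and its E2 means from 0.713 to 1.34 units. Bmp5 had 2 probe sets, 1 with a control mean of 7.17 and an E2 mean of 2.01 units and 1 with 2.02 and 5.05 units, so their means differed in opposite directions. The first rested on control replicate 3, an array of high 18S signal, at 14.6 units, against 1.61 and 5.30 units on the other control arrays. Bmp6 averaged 4.18 units in the control cells and 1.64 units after E2. The groups overlapped on every probe set of Bmp2, Bmp5, Bmp6 and Bmp7, none entered the test, and no fold is given for them.

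**Figure D3:**
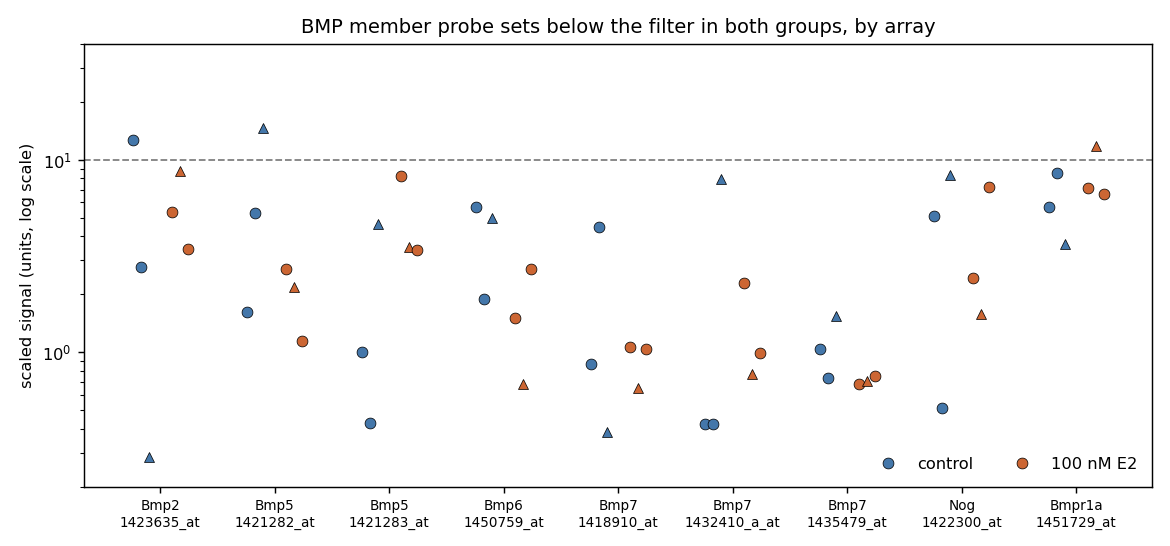
Scaled signal in units, on a log scale, of the 9 member probe sets below the filter in both groups, 1 point per array, in control (blue) and 100 nM E2 (orange), with a dashed line at 10 units and triangles for the arrays of high 18S signal. Single arrays pass the line for Bmp2 (12.6 units), Bmp5 (14.6 units) and a dim probe set of Bmpr1a (11.8 units), and the groups overlap on every probe set.

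Of the antagonists, Grem1 (gremlin), which binds BMP2, BMP4 and BMP7, was measured on 1 probe set, 1425357_a_at. It read 73.7, 70.4 and 30.8 units on control replicates 1 to 3 and 54.8, 37.9 and 56.4 units on E2 replicates 1 to 3. The groups overlapped, and the lowest array of each group was that of high 18S signal. On all arrays the log2 difference came to -0.15 with an SE of 0.29 (adjusted p = 0.943 from limma), and without those arrays to -0.37 with an SE of 0.18 (adjusted p = 0.523), where the means were 72.0 and 55.6 units. It turned slightly positive, up to 0.072, when control replicates 1 or 2 or E2 replicate 2 were left out. Nog (noggin), which binds BMP4 tightly, read 0.515 to 8.33 units in control and 1.58 to 7.25 units in E2 and was not tested.

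Bmpr1a, the type I receptor also called ALK3, was read by 5 probe sets, which share a single source sequence in the annotation and are not independent of each other. Its brightest, 1425492_at, read 182, 174 and 157 units on control replicates 1 to 3 and 174, 114 and 151 units on E2 replicates 1 to 3, and the groups overlapped. The means were 171 ± 12.6 and 146.5 ± 30.1 units (SD, n = 3 each), and the log2 values differed by -0.24 with an SE of 0.16 (limma, adjusted p = 0.760). The E2 array of high 18S signal, at 114 units, was the lowest of the 6. The difference was -0.072 without it, -0.37 without E2 replicate 1, and -0.13 (adjusted p = 0.809) without both arrays of high 18S signal.

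The other tested probe sets of Bmpr1a had log2 differences of -0.22 (1425491_at, SE 0.16), -0.26 (1425493_at, SE 0.20) and -0.65 (1425494_s_at, SE 0.28), with adjusted p of 0.782, 0.807 and 0.593 from limma. For 1425491_at the control arrays read 68.4, 79.5 and 66.6 units and the E2 arrays 62.4, 59.2 and 61.5 units, without overlap. For 1425494_s_at, whose suffix marks probes that may match other transcripts, the control arrays read 48.6, 45.7 and 28.9 units and the E2 arrays 26.3, 17.5 and 36.2 units. This probe set overlapped between the groups although it passed the 1.5-fold and unadjusted P thresholds. Without both arrays of high 18S signal the differences of these 3 probe sets were -0.25, -0.34 and -0.61, with adjusted p of 0.685, 0.660 and 0.400 from limma. With single arrays left out, the ranges were -0.27 to -0.14 for 1425491_at, -0.38 to -0.12 for 1425493_at and -0.90 to -0.38 for 1425494_s_at, with the smallest difference without control replicate 2, control replicate 2 and E2 replicate 2. The fifth, 1451729_at, had means of 5.92 and 8.54 units in control and E2, below the filter.

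Bmpr2, the type II receptor, read 9.94, 14.9 and 5.93 units on control replicates 1 to 3 and 11.7, 7.79 and 12.1 units on E2 replicates 1 to 3. The groups overlapped, the level was close to the filter, and the log2 difference of 0.11 had an SE of 0.50 (adjusted p = 0.979 from limma). Without both arrays of high 18S signal it was -0.035 with an SE of 0.47.

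Both arrays of high 18S signal were the lowest of their group on 6 of the 8 member probe sets tested, which were those of Grem1, Bmpr1a and Bmpr2, against 17.3% of all probe sets tested. Most of these 6 read Bmpr1a from a shared source sequence, so they do not count as independent members. On Bmp4 control replicate 3 was the highest control array, and on Gdf10 it was the middle one. The part of the 18S signal in the spread of Grem1 and the receptors was not tested.

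The genes whose pattern over the 6 arrays was most like that of Bmp4 were Ube3b, Gabarapl2 and Ddt, with a Pearson r of 0.991, 0.990 and 0.990. They were ranked among 3698 probe sets whose deposited mean reached 100 units in control or in E2. Their log2 differences, -0.32, -0.20 and -0.28, were smaller than that of Bmp4, and none was called (limma, adjusted p of 0.625, 0.740 and 0.670). The most like Gdf10 were Errfi1, Htra1 and Cyp7b1, with an r of 0.991, 0.990 and 0.987 and log2 differences of 0.59, 1.31 and 1.60. By scaled means Cyp7b1 reached 100 units in E2 alone (56.3 and 173.9 units in control and E2). Ube3b (106.5 and 85.7 units) and Ddt (107.7 and 88.8 units) reached it in control alone, also by scaled means. The filter took the deposited mean of either group, so it was not blind to the groups. These correlations rest on 6 arrays in 2 groups that share their scaling, and are given as a description.

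Around the members, 62 further genes of the BMP pathway were listed, of which 46 were on the array and 29 were tested by their brightest probe set. By limma none rose and 1 fell (Fst), against 0.569% and 0.339% of the 8257 genes tested. At an unadjusted p under 0.05, 2 were higher and 5 were lower, against 3.58% and 4.72% of genes. The median log2 difference was 0.03, and -0.03 over all genes tested. Where groups of a pathway gene are said not to overlap, the shares to hold beside it are those of all probe sets tested. Every E2 array was above every control array for 5.72% of them and below for 8.47%. For some genes a dimmer tested probe set differed in sign or size from the brightest. Examples are Id4 (0.22 against -0.26), Smad4 (0.21 against -0.23), Bmp1 (-0.05 against 0.17) and Acvr1 (1.37 against 0.04), none past the adjusted threshold.

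Among 6 tested antagonists and modulators, Fst, the activin-binding protein follistatin, which also binds some BMPs, fell from 75.6, 83.4 and 85.5 units on the control arrays to 41.1, 36.9 and 46.5 units on the E2 arrays. The groups did not overlap, with a log2 difference of -0.98 and an SE of 0.17 (limma, adjusted p = 0.0125). It was not called as deposited, without a variance trend, without control replicates 2 or 3, without E2 replicate 1 or without both arrays of high 18S signal. Nbl1 (DAN), an antagonist of the gremlin family, had means of 73.4 and 100.4 units (0.43, adjusted p = 0.583). Chrd (chordin, -0.19) and Twsg1 (-0.22), which act together on BMP ligands, and Fstl1 (-0.11) and Fstl3 (0.15) did not pass.

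Among 6 tested receptors and coreceptors, Bambi, a pseudoreceptor that lacks the kinase domain and blocks BMP and TGF-β receptors, read 31.0, 44.5 and 38.6 units on the control arrays and 18.7, 18.2 and 19.9 units on the E2 arrays. These groups did not overlap, with a log2 difference of -0.99 and an SE of 0.23 (limma, adjusted p = 0.0752). It was called with array weights (adjusted p = 0.0374). Acvrl1, the type I receptor ALK1, had means of 33.0 and 22.6 units (-0.56, adjusted p = 0.572). Bmpr1b (0.09), Acvr1 (0.04), Acvr2a (-0.02) and Eng (0.21) did not pass.

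Of the other BMP and GDF ligands, 9 were on the array, and only Gdf11 was tested (8.22 and 13.6 units, log2 difference 0.90, adjusted p = 0.724 from limma). The proteases that mature BMP precursors or cleave chordin, Bmp1, Furin, Pcsk5 and Pcsk6, had differences from 0.17 to 0.72, and none passed, also at an unadjusted p under 0.05. Gdf11, Pcsk5 and Pcsk6 reached the 10-unit filter in E2 alone. Their deposited means in control and E2 were 7.76 and 14.25, 6.445 and 10.62, and 9.396 and 15.87 units. For such genes the filter itself favors a positive difference. The 5 tested Smad genes had differences from -0.26 (Smad6) to 0.53 (Smad7), and again none passed before or after adjustment.

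Of 7 tested target genes of BMP signaling none passed the adjusted threshold in limma. At an unadjusted p under 0.05, 1 was higher and 2 were lower, against 3.58% and 4.72% of all genes tested. Id3 read 176.5, 186 and 171 units on the control arrays and 148, 116.5 and 119 units on the E2 arrays, without overlap (-0.48 on the log2 scale with an SE of 0.14, limma adjusted p = 0.229). Id2, also without overlap, had means of 20.2 and 9.52 units (-1.14, adjusted p = 0.366), Id1 of 54.2 and 55.2 units (0.03) and Id4 of 136 and 116 units (-0.26). The homeobox gene Msx2 averaged 2.39 units in the control cells and 15.3 units after E2 (adjusted p = 0.318), and its control signal was below 10 units on every array. Msx2 thus passed the filter through E2 alone.

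**Figure D4:**
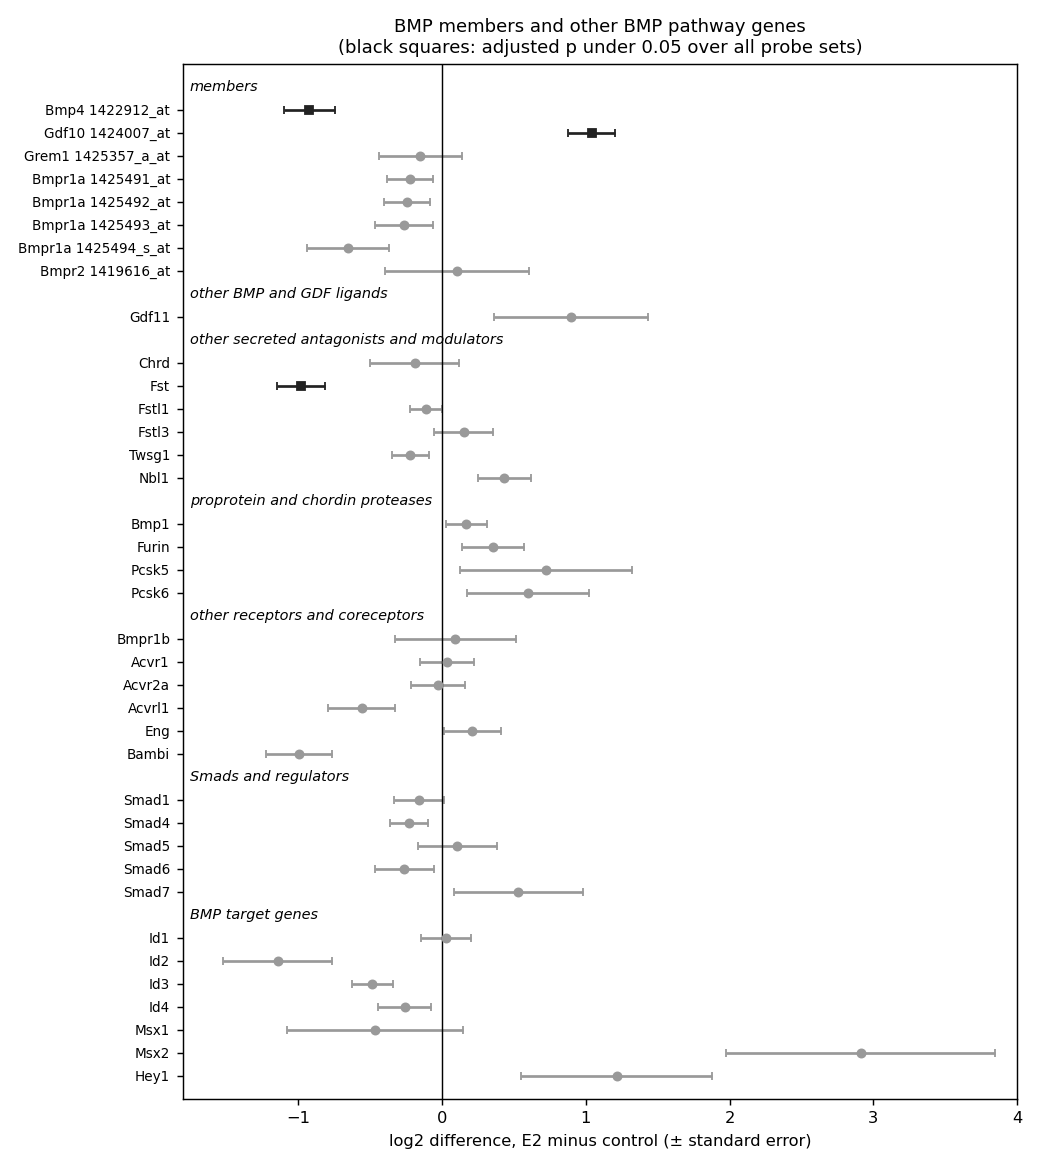
Log2 difference, E2 minus control, with its standard error, of the 8 member probe sets tested and of 29 other BMP pathway genes by their brightest probe set, grouped by role. Black squares, with an adjusted p under 0.05 over all probe sets, mark Bmp4 (-0.92), Gdf10 (1.04) and Fst (-0.98), and all other points are grey circles.

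Markers of other cell types were read on the same arrays. The summed signal of 8 macrophage and leukocyte markers was 582 to 946 units in control and 522 to 626 units in E2. All 8 had negative differences, none called by limma, the closest being C1qb (-1.24, adjusted p = 0.0630). Their median log2 difference was -0.38, and the median over all genes tested was also below 0, at -0.03. The share of all genes with a negative difference was not computed, so nothing is read from this count. The highest sum was that of control replicate 3, an array of high 18S signal. Without both such arrays the sums were 582 and 764 units in control and 594 and 626 units in E2, and 7 of the 8 markers had a lower mean in E2, the exception being Adgre1 (33.9 and 35.0 units), with Lyz2 (411 and 397 units) and Cd14 (53.4 and 52.4 units) close to level. The summed signal of 8 epithelial markers was 53.7 to 90.4 units in control and 132 to 141.5 units in E2. Of 4 tested markers 1 was called higher (Krt18), against 0.569% of all genes tested. The 7 mesenchymal markers (12110 to 13910 and 11780 to 12660 units) and 5 smooth muscle markers (6237 to 7866 and 6679 to 7508 units) overlapped between the groups, and of 4 endothelial markers 3 were below 10 units. The part of these cells in the differences of Bmp4 and Gdf10 was not tested, and fewer cells of a type cannot be told apart here from less RNA per cell.

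**Figure D5:**
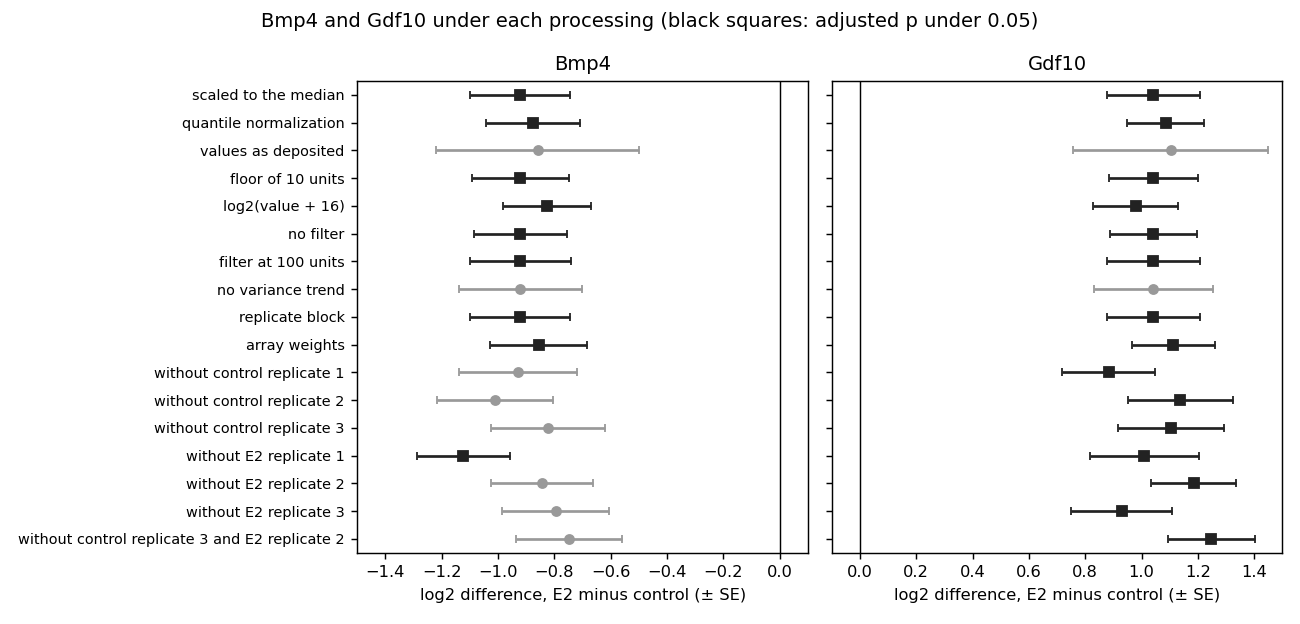
Log2 difference, E2 minus control, with its standard error, of Bmp4 (left) and Gdf10 (right) under each processing, from scaling to the median at the top to leaving out both arrays of high 18S signal at the bottom; black squares have an adjusted p under 0.05 by limma. Bmp4 runs from -1.12 to -0.75 and Gdf10 from 0.88 to 1.25, and grey circles are more frequent for Bmp4.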

How the data were processed

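The authors deposited a linear intensity for each probe set of each Affymetrix mouse 430A array, made with the software of the manufacturer. Which signal algorithm and which scaling this used is not stated by the labels or methods. Groups and replicate numbers came from the sample titles, and no label gave a batch. Before scaling, the control arrays (replicates 1 to 3) had medians of 17.1, 20.0 and 14.1 units and the E2 arrays of 18.2, 13.8 and 21.9 units. Each array was scaled to the geometric mean of the medians. Probe sets with a deposited mean of at least 10 units in either group were fitted on log2 values with limma 3.58.1 in R 4.3.3 (lmFit, eBayes with a variance trend), without the 64 control probe sets of the array. The test was two-sided, with Benjamini-Hochberg adjustment. The fit was tested on simulated data. Symbols came from the platform annotation, updated by gene identifier (20393 probe sets with 1 symbol, 691 with several, 1555 not listed). A pathway gene was given by its brightest probe set.

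The members and lists were chosen with earlier results of these data known. Named are all members, pathway genes with an adjusted p under 0.05 or, up to 4 per list, the smallest unadjusted p under 0.05, Id1 to Id4, and the 3 genes most correlated with Bmp4 and with Gdf10. Further pathway and marker genes are named with values outside this rule, chosen after their values were seen, to show the other tested genes of a list. Marker lists were epithelial, macrophage and leukocyte, endothelial, smooth muscle, mesenchymal and urogenital mesenchyme, the last with 5 genes on the array and a summed signal of 61.4 to 68.7 units in control and 85.1 to 107.5 units in E2. Alternatives were the values as deposited, quantile normalization, a filter at 100 units or none, log2(value + 16), signals floored at 10 units, array weights, no variance trend, a replicate block, leaving out single arrays, and both arrays of high 18S signal left out. Precision is limited by the number of arrays.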

Additional observations from a re-analysis of the deposited data

How the results depend on the processing

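The number of arrays and signals near background limited what could be shown, with a median standard error of a log2 difference of 0.14 at 100 units and above and 0.43 under 20 units. Bmp4 was lower and Gdf10 higher with E2 under each of the 16 alternatives, at an adjusted p under 0.05 in 8 and 14 of them. With the values as deposited Bmp4 was at -0.86 and Gdf10 at 1.10, and without a variance trend at -0.92 (adjusted p = 0.282 from limma) and 1.04 (adjusted p = 0.224), so that 0 member probe sets were called higher and 0 lower in both settings, and 1 in each direction in the main comparison. Without both arrays of high 18S signal Bmp4 was at -0.75, so that 0 were called lower. With single arrays left out Bmp4 ranged from -1.12 to -0.80, and the member probe sets called lower from 0 to 1. By the 1.5-fold and unadjusted P thresholds 1 member probe set was lower, in place of 2, as deposited, with log2(value + 16), with a filter at 100 units, without a variance trend and with array weights, and 1 to 2 with single arrays left out. Of the other pathway genes 0 were called lower as deposited, with a filter at 100 units, which removes Fst, without a variance trend and with the high-18S arrays both left out, 2 (Fst and Bambi) with array weights, and 0 to 1 with single arrays left out. The difference of Grem1 reversed to 0.072, 0.039 and 0.035 without control replicate 1, control replicate 2 and E2 replicate 2, and that of Bmpr2 to -0.026 with a floor of 10 units, -0.24 without control replicate 3, -0.0065 without E2 replicate 3 and -0.035 with the high-18S arrays both left out. With control replicate 3 left out Grem1 was at -0.56. Over all probe sets, 70 were called higher and 36 lower, against 39 and 7 as deposited (66.0% and 84.8% higher), 15 and 1 without a variance trend and 113 and 71 with array weights, 41 higher with a filter at 100 units, and 37 to 75 higher and 11 to 31 lower with single arrays left out (82 higher and 28 lower without the high-18S arrays). By the 1.5-fold and unadjusted P thresholds, 292 were higher and 267 lower, against 145 lower as deposited, 119 and 79 with log2(value + 16), 494 and 408 without a filter, 48 and 46 with a filter at 100 units, and 237 to 433 lower with single arrays left out. Where calls were lost, the cause was not tested. The replicate numbers gave no sign of a pairing, since deviations of arrays with the same number correlated at -0.06 to 0.01. The best match across groups was E2 replicate 1 for control replicate 1, E2 replicate 3 for control replicate 2 and E2 replicate 2 for control replicate 3. The last match joins the arrays of high 18S signal, and no fit used these matches. With the replicate number as a block, Bmp4 had an adjusted p of 0.0340 and Gdf10 of 0.00956 from limma, and 61 probe sets were called higher and 27 lower.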
